A study of Mus musculus with 31 samples.

Results

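The MCM helicase genes Mcm2, Mcm3, Mcm4, Mcm5, Mcm6 and Mcm7 were followed through differentiation of B6 mouse embryonic stem (ES) cells. Members were all probe sets that the array annotation pairs with exactly 1 gene symbol, that symbol being a member, which gave 8 probe sets for 6 genes among 12488 probe sets on the array. Of those 12488, 10833 are named by 1 symbol, and they cover 8251 genes. All 6 genes were measured. Mcm3 had the probe sets 160496_s_at and 100062_at, Mcm5 had 100156_at and 162102_r_at, and Mcm2 (93112_at), Mcm4 (93041_at), Mcm6 (100149_at) and Mcm7 (93356_at) had 1 each. The differentiated samples were embryoid bodies (EBs), aggregates that form in nonadherent dishes once the cytokine LIF is withdrawn, collected after 4 days (7 arrays), 8 days (6) and 14 days (6). They were set against both groups labelled day 0. The first, ES cells on gelatin (6 arrays), had been separated from the mouse embryonic fibroblast feeder layer (MEFs) and grown once on gelatin, and the EBs were seeded from such cells. The second, sorted ES cells (6 arrays), had been collected by flow cytometry on an Oct4-GFP reporter, so these cells were chosen for activity of 1 pluripotency promoter. All cells came from cultures kept on feeders with serum and LIF. Each array (Affymetrix MgU74Av2) was hybridised with RNA amplified in 2 rounds, and the values are dChip signals on a linear scale. The labels name the arrays of a group as replicates without stating separate cultures for each, and the study's methods call them biological samples.

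The proteins MCM2 to MCM7 form a ring of 6 different subunits that is loaded onto DNA at replication origins in G1, a step called licensing. The origin recognition complex, CDC6 and CDT1 load the ring, and geminin blocks CDT1 once S phase has begun. Kinases then turn the loaded ring into the active helicase by recruiting CDC45 and the GINS complex, and the helicase unwinds DNA ahead of the polymerases. Mouse ES cells divide fast with a short G1 phase, and E2F factors are known regulators of MCM transcription in mammalian cells.

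The 31 arrays correlated between 0.947 and 0.997 within groups. Day 4 arrays 6 and 7 stood apart from the other day 4 arrays (r 0.947 to 0.978), and day 8 arrays 2 and 4 stood apart from arrays 1, 3 and 5 (r 0.972 to 0.981). Arrays 3, 4 and 6 of the gelatin group had a 3' to 5' signal ratio of the Gapdh control of 6.31 to 6.85, against 3.48 to 4.04 on the other 3 gelatin arrays and 2.06 to 4.40 on the arrays of all other groups. Pou5f1 (OCT4), a defining ES cell marker, averaged 4958 ± 1720 at day 4, 1700 ± 765 at day 8 and 1062 ± 307 at day 14, against 4719 ± 584 on gelatin and 6419 ± 523 in sorted cells (SD). Nanog averaged 5396 ± 904, 6116 ± 1460 and 2373 ± 858 at the same days, against 2966 ± 1090 on gelatin and 6312 ± 1070 in sorted cells. Zfp42 averaged 1577 ± 712, 3700 ± 3330 and 326.1 ± 152, against 689.8 ± 126 and 7619 ± 1400. At day 8 both thus averaged higher than on gelatin, unlike Pou5f1. The summed signal of 10 ES cell markers (all measured) had a median of 41211 (26002 to 46930) at day 4, 27736 (18897 to 43437) at day 8 and 16022 (11630 to 20632) at day 14, against 32749 (28272 to 33611) on gelatin and 55317 (49395 to 61187) in sorted cells. For 16 fibroblast markers (all measured) the median was 15616 (13786 to 22445) at day 4, 20035 (15800 to 29940) at day 8 and 47154 (35827 to 53996) at day 14, against 32102 (29715 to 45718) on gelatin and 21036 (17618 to 23677) in sorted cells. These sums weight bright genes: of the 16 fibroblast markers, 7 were lower and 6 higher at day 14 than on gelatin, with a median log2 change of 0.05. Over all 8251 genes, 1986 were lower and 1878 higher in that comparison. Of the 10 ES cell markers, 3 were lower and 3 higher at day 8 than on gelatin, with a median log2 change of -0.09. Over all genes, 2157 were lower and 1544 higher there. For visceral endoderm (11 of 12 markers measured) the median sum was 5276 at day 4, 23514 at day 8 and 35916 at day 14, against 5204 on gelatin and 5183 in sorted cells. None of the listed defining markers was at 0 in any group. These sums moved with the time points, and the part of cell types in the MCM values was not tested. In such bulk samples fewer cells of a type and less RNA per cell cannot be told apart.

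Promoter sequences from RefSeq (GRCm38.p6, 250 bases before to 50 after an annotated start) were matched by symbol for 5 of 6 members, all but Mcm4. Those of Mcm2, Mcm3, Mcm5 and Mcm7 are shown because these genes carried most of the called changes, with the letters TTTCCCGC, TTTCGCGC, TTTGCCGC and TTTGGCGC, forms of the E2F motif, in capitals on either strand.
Mcm2 (chr6:88898731-88899030, minus strand): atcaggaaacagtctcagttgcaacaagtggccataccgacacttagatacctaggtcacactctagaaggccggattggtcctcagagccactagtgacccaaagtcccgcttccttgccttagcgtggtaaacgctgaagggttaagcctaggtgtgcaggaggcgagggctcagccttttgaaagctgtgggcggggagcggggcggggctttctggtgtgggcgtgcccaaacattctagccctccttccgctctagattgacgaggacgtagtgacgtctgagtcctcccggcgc
Mcm3 (chr1:20820263-20820562, minus strand): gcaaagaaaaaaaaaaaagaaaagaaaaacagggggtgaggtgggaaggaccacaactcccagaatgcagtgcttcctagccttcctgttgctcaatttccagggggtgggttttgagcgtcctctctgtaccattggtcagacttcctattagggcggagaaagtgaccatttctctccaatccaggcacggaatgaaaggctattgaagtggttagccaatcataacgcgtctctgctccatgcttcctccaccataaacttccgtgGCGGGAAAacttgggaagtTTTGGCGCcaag
Mcm5 (chr8:75109259-75109558, plus strand): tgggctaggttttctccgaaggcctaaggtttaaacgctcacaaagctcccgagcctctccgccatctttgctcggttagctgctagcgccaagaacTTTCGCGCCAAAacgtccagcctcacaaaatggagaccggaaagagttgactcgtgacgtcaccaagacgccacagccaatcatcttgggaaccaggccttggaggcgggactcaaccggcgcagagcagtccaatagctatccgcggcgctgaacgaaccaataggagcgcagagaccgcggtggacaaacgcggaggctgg
Mcm7 (chr5:138171834-138172133, minus strand): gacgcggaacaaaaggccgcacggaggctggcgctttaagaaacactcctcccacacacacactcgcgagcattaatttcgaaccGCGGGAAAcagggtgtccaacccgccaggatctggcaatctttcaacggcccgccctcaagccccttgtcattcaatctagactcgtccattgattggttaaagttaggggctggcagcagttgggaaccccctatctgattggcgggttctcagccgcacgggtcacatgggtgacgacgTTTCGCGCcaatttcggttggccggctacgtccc
E2F letters stood in 4 of the 5 members, against 2.26% of all 32851 promoters in the table and 2.85% of the 21263 promoters of protein-coding genes. Mcm3 held them at 20 and 39 bases after the start, Mcm7 at 165 bases before and 17 after it, and Mcm5 at 153 and 149 bases before it, where the sites on opposite strands overlap. Mcm6 held 3, at -110, -106 and -47, and of these the first 2 overlap. Its window is not printed, although its dim probe set was also called lower against both day-0 groups. No E2F letters were found in the Mcm2 window or around a second annotated start of Mcm7. The NF-Y letters CCAAT were present in all 5 members (37.4% of all promoters, 38.2% of protein-coding ones) and the Sp1 letters GGGCGG in 4, all but Mcm5 (35.7% and 46.2%). At the first Mcm7 start an E2F match shares its last base with a CCAAT match. These are matches of letters, not sites of binding.

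**Figure D1:**
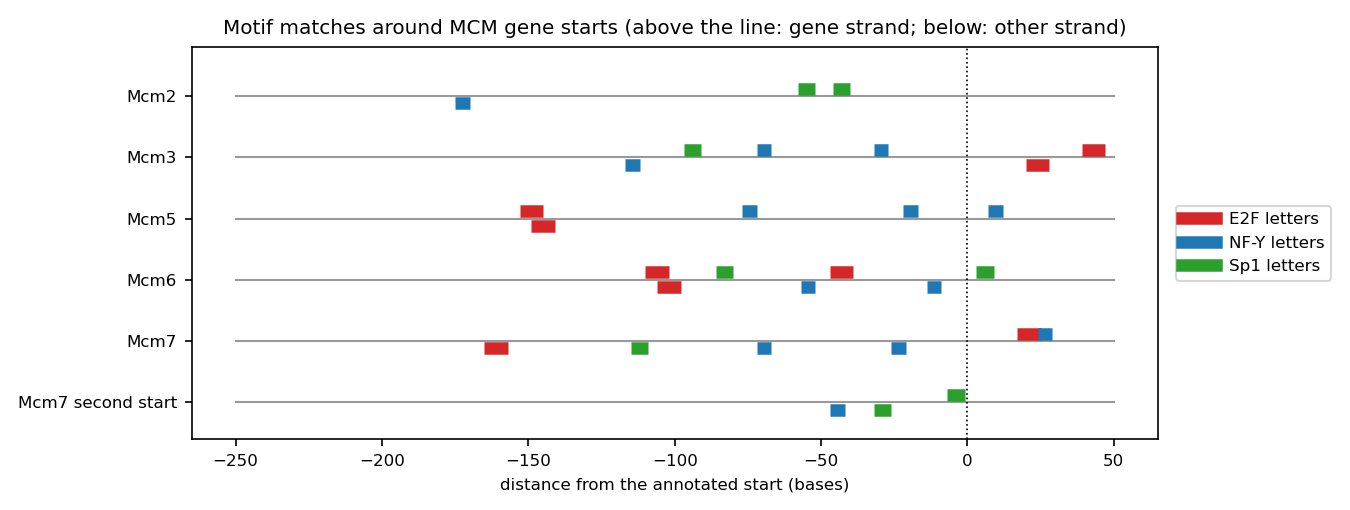
Matches of the E2F, NF-Y and Sp1 letters (coloured blocks) by distance from the annotated start in bases, 1 line per promoter window, with the gene strand above and the other strand below the line. E2F letters appear in the windows of Mcm3, Mcm5, Mcm6 and the first start of Mcm7, and in neither the Mcm2 window nor the second Mcm7 window.

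MCM transcripts did not move as 1 block. At day 4 Mcm2, Mcm4, Mcm7 and 1 probe set of Mcm3 were higher than on gelatin. Within day 4, arrays 6 and 7 lay below all others on Mcm2 (1786 to 2165 against 2187 to 3166). They did so on Mcm4 (2428 to 3206 against 3455 to 4531) and on both Mcm3 probe sets. The called Mcm3 probe set held 5294 to 5484 against 6220 to 7390. On Mcm4 and Mcm3, arrays 6 and 7 lay within the gelatin range. Mcm6, Mcm7 and 1 probe set of Mcm5 overlapped, and the other Mcm5 probe set split the other way. By day 14 Mcm2, Mcm6 and 1 probe set each of Mcm3 and Mcm5 were lower than in both day-0 groups, while Mcm4 was higher than in both. The Mcm6 probe set was near background, and its calls, which are among the lower ones counted at days 8 and 14 and at day 4 against sorted cells, had no measurable size once values under the 25th percentile were levelled. Against ES cells on gelatin, 4 of 8 MCM probe sets were higher and 0 lower at day 4 (limma, adjusted p under 0.05; 7.95% of the 12422 probe sets tested were higher and 16.3% lower). At day 8, 1 was higher and 4 lower (17.4% and 25.6% of all), and at day 14 again 1 was higher and 4 lower (21.8% and 23.2%). Against sorted ES cells 2 were higher and 1 lower at day 4 (11.1% and 13.7%), 1 higher and 5 lower at day 8 (15.3% and 19.9%), and 1 higher and 6 lower at day 14 (24.8% and 24.0%). The median log2 change of the 8 probe sets against gelatin was 0.29 at day 4, -0.11 at day 8 and -0.18 at day 14, beside -0.01 to 0 over all probe sets. Against sorted cells it was 0.07, -0.39 and -0.35 at the same days, beside -0.02 to 0 over all. No MCM change against a day-0 group reached 2-fold. The comparisons at each day share their day-0 arrays, and the sides of the split over all probe sets at day 14 depend on scaling: with each array centred on its median, the median of all moved to -0.11, and 41.1% were lower and 18.7% higher than in sorted cells. Against gelatin, 16.3% lower and 7.95% higher at day 4 became 12.2% and 19.5% under that centring.

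**Figure D2:**
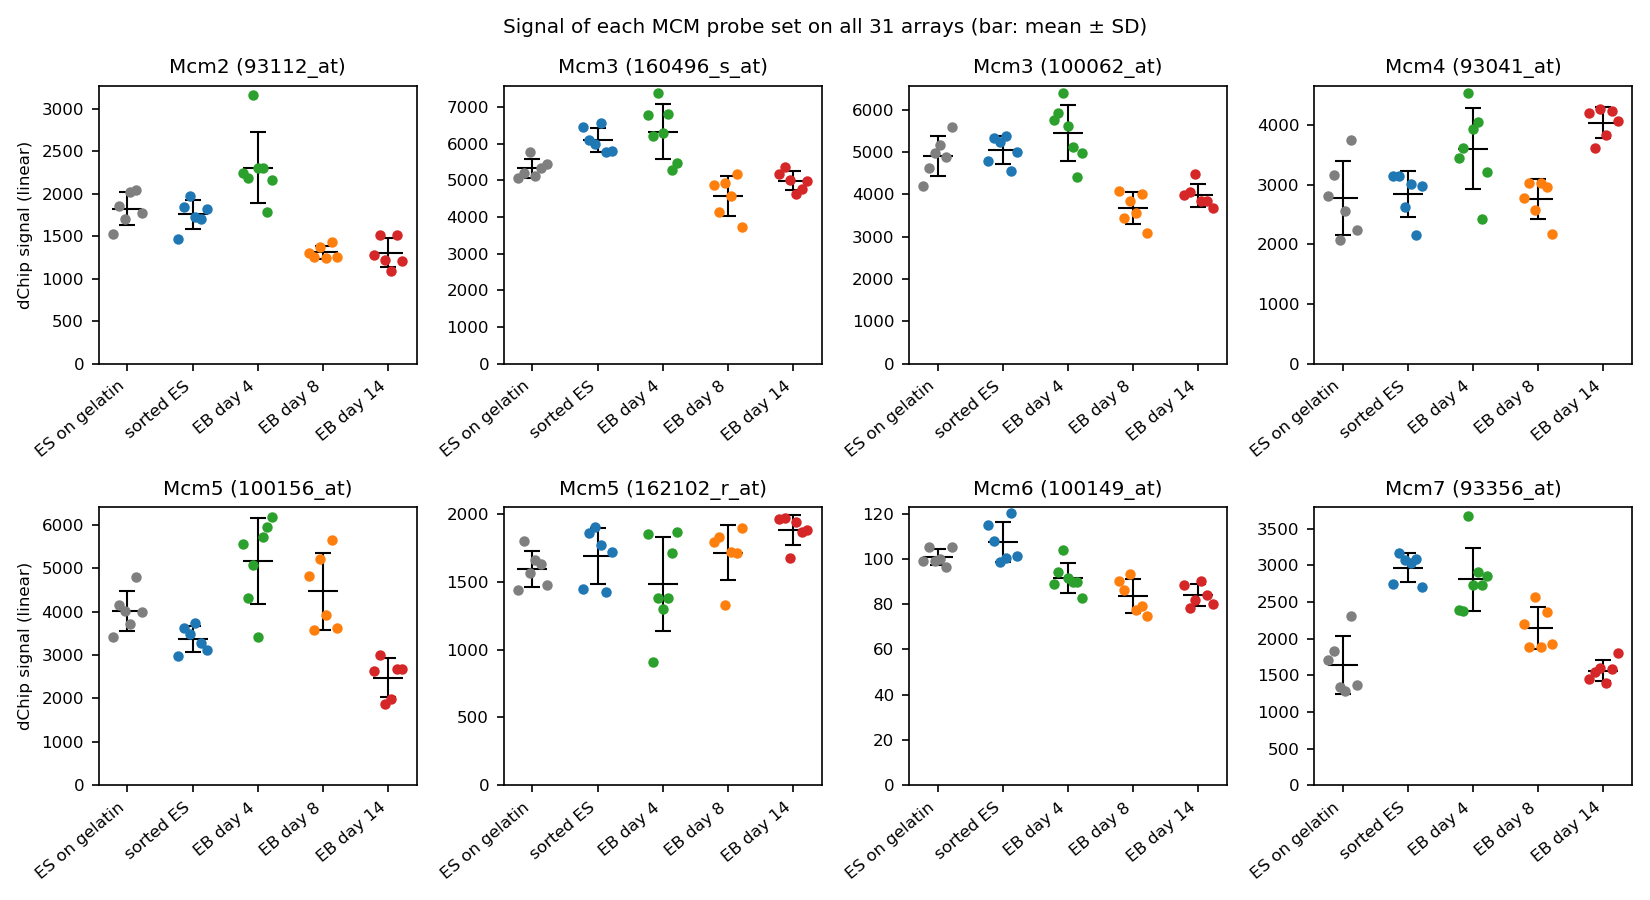
Linear dChip signal of each MCM probe set on every array (points), by group from ES cells on gelatin and sorted ES cells to EBs at day 4, 8 and 14, with the group mean and SD (bars). Mcm2 is highest at day 4 (mean 2308) and near 1310 at days 8 and 14, Mcm4 is highest at day 14 (mean 4037), and the 6 sorted ES arrays of Mcm7 (2700 to 3164) lie above all 6 gelatin arrays (1291 to 2312).

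Mcm2, whose protein contributes a histone-binding tail and 1 side of the gate through which DNA enters the ring, was highest in day 4 EBs. Its signal had a lowest, median and highest value of 1786, 2241 and 3166 at day 4, of 1241, 1281 and 1433 at day 8 and of 1094, 1252 and 1519 at day 14. The gelatin arrays held 1529, 1816 and 2043 and the sorted arrays 1472, 1773 and 1977. All day 8 and day 14 arrays lay below all gelatin arrays, while the day 4 arrays overlapped both day-0 groups. At day 4 the log2 change was 0.33 ± 0.10 (SE) against gelatin (adjusted p = 0.0125) and 0.38 ± 0.10 against sorted cells (adjusted p = 0.00468). It fell at day 8 by 0.47 ± 0.10 against gelatin (adjusted p = 0.000375) and by 0.42 ± 0.10 against sorted cells (adjusted p = 0.00164), and at day 14 by 0.48 and 0.43 (adjusted p = 0.000236 and 0.000737). Days 14 and 8 differed by -0.01 (interval -0.22 to 0.19). In order of level, day 4 stood above gelatin, sorted and day 8, and neither gelatin and sorted (adjusted p = 0.736) nor days 8 and 14 (adjusted p = 0.972) differed beyond their spread. Day 4 array 3 was the highest of its group, and with any 1 array left out the day 4 change against gelatin was 0.25 to 0.39. Without gelatin arrays 3, 4 and 6 the rise was 0.34 but no longer passed (adjusted p = 0.0636), nor did it with only the 2 groups in the fit (0.33, adjusted p = 0.0616).

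Mcm3, whose protein docks the incoming ring onto the origin recognition complex and CDC6 in yeast, was lower at day 8 on both probe sets. On 160496_s_at the lowest, median and highest signals were 5294, 6300 and 7390 at day 4, then 3715, 4715 and 5178 at day 8, then 4636, 4991 and 5361 at day 14, against 5054, 5278 and 5783 on gelatin and 5780, 6051 and 6561 in sorted cells. On 100062_at they were 4405, 5602 and 6390 at day 4, then 3091, 3697 and 4082 at day 8, then 3669, 3914 and 4469 at day 14, against 4193, 4921 and 5578 on gelatin and 4560, 5120 and 5381 in sorted cells. All day 8 arrays lay below all sorted arrays on both probe sets, and below all gelatin arrays on 100062_at alone. The _s_at suffix marks probes shared between similar sequences, so levels of the 2 probe sets were not set against each other. Their log2 signals correlated at 0.887 over the 31 arrays (0.724 with group means removed). Against sorted cells Mcm3 fell by 0.43 ± 0.07 (160496_s_at) and 0.47 ± 0.08 (100062_at) at day 8 (adjusted p = 4.86e-05 and 4.67e-05) and by 0.29 and 0.35 at day 14 (adjusted p = 0.00159 and 0.000691). Against gelatin the first probe set changed by 0.24 at day 4 (adjusted p = 0.0131), -0.23 at day 8 (adjusted p = 0.0122) and -0.10 at day 14 (adjusted p = 0.313), and the second by 0.15, -0.42 and -0.30 (adjusted p = 0.162, 0.000111 and 0.0029). On 100062_at the day 4 change passed with quantile normalization (0.27, adjusted p = 0.0113) and median centring (0.22, adjusted p = 0.0316). Under these scalings 14.8% and 19.5% of all probe sets were higher. The day 8 call on 160496_s_at was lost with quantile normalization (-0.08, adjusted p = 0.463), without gelatin arrays 3, 4 and 6 (-0.20, adjusted p = 0.106) or without day 8 arrays 2 and 4 (-0.20, adjusted p = 0.053), and the day 14 call on 100062_at without gelatin arrays 3, 4 and 6 (-0.20, adjusted p = 0.117).

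Mcm4, whose tail is phosphorylated by the DBF4-dependent kinase CDC7 when the helicase is switched on, was the single member higher at day 14 than in both day-0 groups. Its lowest, median and highest signals were 2428, 3623 and 4531 at day 4, then 2170, 2864 and 3036 at day 8, then 3615, 4135 and 4275 at day 14, against 2074, 2693 and 3749 on gelatin and 2157, 2995 and 3142 in sorted cells. The day 14 arrays all lay above every sorted and every day 8 array, and overlapped gelatin through 1 gelatin array (3749). At day 14 the log2 change was 0.57 ± 0.13 against gelatin (adjusted p = 0.000931) and 0.51 ± 0.13 against sorted cells (adjusted p = 0.00224), and 0.56 ± 0.13 against day 8 (adjusted p = 0.00233). At day 8 it was 0.01 and -0.04 against the day-0 groups. At day 4 the change was 0.39 ± 0.13 against gelatin (adjusted p = 0.0288) and 0.33 ± 0.13 against sorted cells (adjusted p = 0.0613). That day 4 call was lost when any 1 of gelatin arrays 3, 4 and 6 or of day 4 arrays 3, 4 and 5 was left out (0.31 to 0.37, adjusted p = 0.0521 to 0.0912). Without all of gelatin arrays 3, 4 and 6 the change against gelatin was 0.14 at day 4 (adjusted p = 0.591) and 0.32 at day 14 (adjusted p = 0.0973). With any single array left out, the change against sorted cells stayed at 0.44 to 0.55.

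Mcm5, which pairs with Mcm2 at the gate of the ring, gave different patterns on its 2 probe sets. On 100156_at the lowest, median and highest signals were 3412, 5550 and 6183 at day 4, then 3579, 4367 and 5655 at day 8, then 1874, 2651 and 3011 at day 14, against 3410, 4009 and 4793 on gelatin and 2976, 3382 and 3734 in sorted cells. All day 14 arrays lay below all gelatin, day 4 and day 8 arrays, and the highest reached into the sorted range. The log2 change at day 14 was -0.71 ± 0.14 against gelatin (adjusted p = 0.000121), -0.46 ± 0.14 against sorted cells (adjusted p = 0.00714) and -0.85 ± 0.14 against day 8 (adjusted p = 4.48e-05). Earlier, Mcm5 on this probe set was higher than in sorted cells at day 4 (0.60 ± 0.13, adjusted p = 0.00166) and day 8 (0.39 ± 0.14, adjusted p = 0.0296), whereas the changes against gelatin, 0.35 and 0.14, did not pass (adjusted p = 0.0588 and 0.448). The day 4 change against gelatin passed with quantile normalization (0.47, adjusted p = 0.023) and median centring (0.42, adjusted p = 0.0218). Under these scalings 14.8% and 19.5% of all probe sets were higher.

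On 162102_r_at, whose suffix marks a probe set selected under relaxed rules, the lowest, median and highest signals were 912, 1384 and 1868 at day 4, then 1332, 1761 and 1900 at day 8, then 1677, 1915 and 1974 at day 14, against 1440, 1601 and 1804 on gelatin and 1426, 1749 and 1905 in sorted cells. Every pair of these groups overlapped. No change of 162102_r_at against a day-0 group passed (day 14 against gelatin 0.24, adjusted p = 0.118; against sorted cells 0.17, adjusted p = 0.283), and against day 4 it was higher at day 14 (0.38 ± 0.12, adjusted p = 0.011) where 100156_at was lower (-1.06 ± 0.13, adjusted p = 2.9e-07). The rise on 162102_r_at missed the threshold under median centring of the arrays (0.26, adjusted p = 0.0541) and with only day 4 and day 14 in the fit (0.38, adjusted p = 0.0585). The probe sets correlated at -0.246 over the 31 arrays and at 0.353 with group means removed, so the fall of Mcm5 at day 14 rests on 1 of its 2 probe sets. On 100156_at day 8 arrays 1, 3 and 5 held 4823 to 5655 and arrays 2, 4 and 6 held 3579 to 3911. Leaving out arrays 1, 3 and 5, the highest of day 8 here, necessarily lowers the day 8 mean. Without them the day 8 change against sorted cells was 0.14 (adjusted p = 0.537). That change also missed the threshold without any 1 of those arrays or of sorted arrays 1 and 6 (0.32 to 0.37).

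Mcm6, which with Mcm4 and Mcm7 makes a subcomplex with helicase activity in vitro and binds CDT1 during loading, was dim. Its mean signal stood at the 8.7th percentile of all probe sets. The lowest, median and highest signals were 82.7, 89.8 and 104.1 at day 4, then 74.6, 82.6 and 93.2 at day 8, then 78.1, 83.1 and 90.4 at day 14, against 96.2, 99.6 and 105.4 on gelatin and 98.7, 104.7 and 120.4 in sorted cells. All day 8 and day 14 arrays lay below all arrays of both day-0 groups. The log2 changes were small: -0.28 ± 0.06 and -0.27 ± 0.06 against gelatin at days 8 and 14 (adjusted p = 0.00025 and 0.000319), and -0.23, -0.36 and -0.35 against sorted cells at days 4, 8 and 14 (adjusted p = 0.00287, 1.35e-05 and 8.47e-06). Every one of these values lay under the 25th percentile, so they describe a probe set close to background.

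Mcm7, the remaining subunit of that subcomplex, whose gene also hosts microRNAs in an intron, gave a direction that depended on the day-0 group. The lowest, median and highest signals were 2373, 2733 and 3668 at day 4, then 1888, 2064 and 2565 at day 8, then 1400, 1567 and 1802 at day 14, against 1291, 1538 and 2312 on gelatin and 2700, 3053 and 3164 in sorted cells. All day 8 and day 14 arrays lay below all sorted arrays, and all day 4 arrays above all gelatin arrays. Against sorted cells the log2 change was -0.09 at day 4 (interval -0.32 to 0.14), -0.48 ± 0.12 at day 8 (adjusted p = 0.00207) and -0.93 ± 0.12 at day 14 (adjusted p = 2.38e-07). Against gelatin it was 0.79 ± 0.11 at day 4 (adjusted p = 4.88e-06), 0.40 ± 0.12 at day 8 (adjusted p = 0.00643) and -0.04 ± 0.12 at day 14 (adjusted p = 0.822). Among EBs alone Mcm7 was lower at day 8 than at day 4 (-0.39, adjusted p = 0.0119) and lower again at day 14 than at day 8 (-0.45, adjusted p = 0.00469). Day 8 arrays 1, 3 and 5 held 2202 to 2565, and arrays 2, 4 and 6 held 1888 to 1926. Without arrays 1, 3 and 5, the highest of day 8 here, the day 8 mean necessarily falls. The change of day 14 against day 8 was then -0.29 (adjusted p = 0.221) and that of day 8 against gelatin 0.24 (adjusted p = 0.189). Without arrays 2 and 4 the change of day 8 against day 4 was -0.30 (adjusted p = 0.0869).

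**Figure D3:**
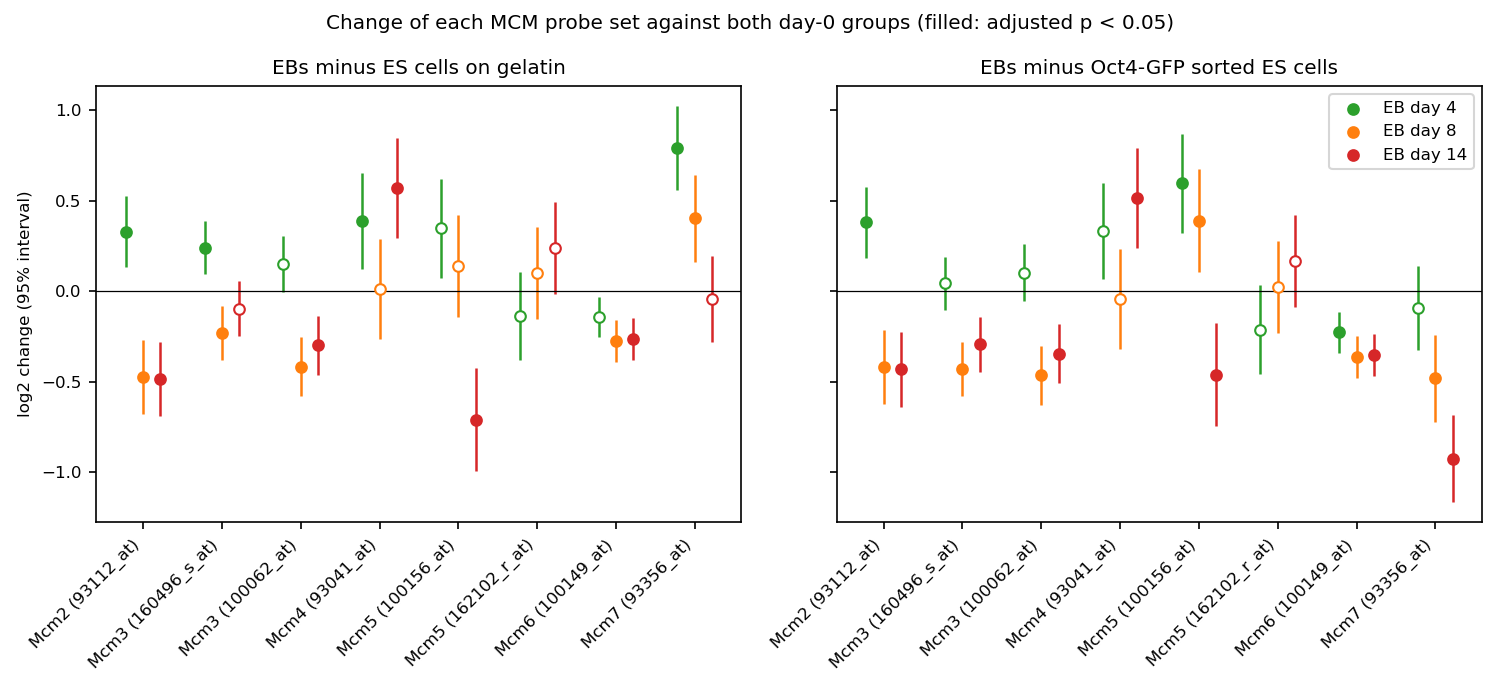
Log2 change of each MCM probe set in EBs at day 4, 8 and 14 minus ES cells on gelatin (left) and minus sorted ES cells (right), with 95% intervals; filled points passed adjusted p under 0.05 in limma. Mcm7 lies above 0 against gelatin at days 4 and 8 (0.79 and 0.40) and below 0 against sorted cells at days 8 and 14 (-0.48 and -0.93), while Mcm4 at day 14 lies above 0 in both panels (0.57 and 0.51).

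The day-0 groups themselves differed most at Mcm7. On gelatin 2 of 8 MCM probe sets were lower than in sorted cells and 0 higher (18.2% of all probe sets were lower and 21.4% higher). Mcm7 differed by -0.88 ± 0.12 (adjusted p = 7.84e-07) with no overlap between the groups, and Mcm3 on 160496_s_at by -0.20 ± 0.07 (adjusted p = 0.0332). The Mcm3 difference was lost when any 1 of gelatin arrays 1, 2 and 4 or of sorted arrays 1 and 4 was left out (adjusted p = 0.0564 to 0.0735). The other changes ran between -0.09 and 0.25 and did not pass.

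Inside the gelatin group, Mcm7, Mcm4 and 1 probe set of Mcm3 separated the arrays with high and low Gapdh 3' to 5' ratios. How many of all probe sets separate these arrays is not given, so the split is not read as particular to MCM genes. The 3 gelatin arrays with a Gapdh 3' to 5' ratio of 6.31 to 6.85 had Mcm7 signals of 1291 to 1373 and Mcm4 signals of 2074 to 2567, against 1703 to 2312 and 2818 to 3749 on the 3 arrays with ratios of 3.48 to 4.04. Mcm3 on 100062_at split the other way (4966 to 5578 against 4193 to 4876). The other 5 probe sets overlapped between these arrays, Mcm2 with 1709 to 2025 against 1529 to 2043. Without the 3 high-ratio arrays the log2 change of Mcm7 against gelatin was 0.14 at day 8 (adjusted p = 0.41) and -0.31 at day 14 (adjusted p = 0.047). With the ratio as a covariate it was -0.20 at day 8 (adjusted p = 0.472) and -0.61 at day 14 (adjusted p = 0.00241). How many calls over all probe sets the covariate ended is not given, so its losses are not read as particular to MCM genes. The same covariate ended most other calls against gelatin. For Mcm4 the change was then 0.23 at day 4 (adjusted p = 0.517) and 0.34 at day 14 (adjusted p = 0.283), and for Mcm3 on 100062_at -0.19 at day 8 (adjusted p = 0.439) and -0.08 at day 14 (adjusted p = 0.701). On 160496_s_at the day 8 change of Mcm3 was -0.06 (adjusted p = 0.852). Mcm2 kept values of 0.35, -0.44 and -0.46 at days 4, 8 and 14 but missed the threshold (adjusted p = 0.112, 0.126 and 0.0504), and Mcm6 missed it at days 8 and 14. The part of RNA quality in the gelatin values was not tested beyond these fits, and the ratio itself differed between groups: only 2 day 4 arrays (3.49 and 4.40) reached the gelatin range.

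**Figure D4:**
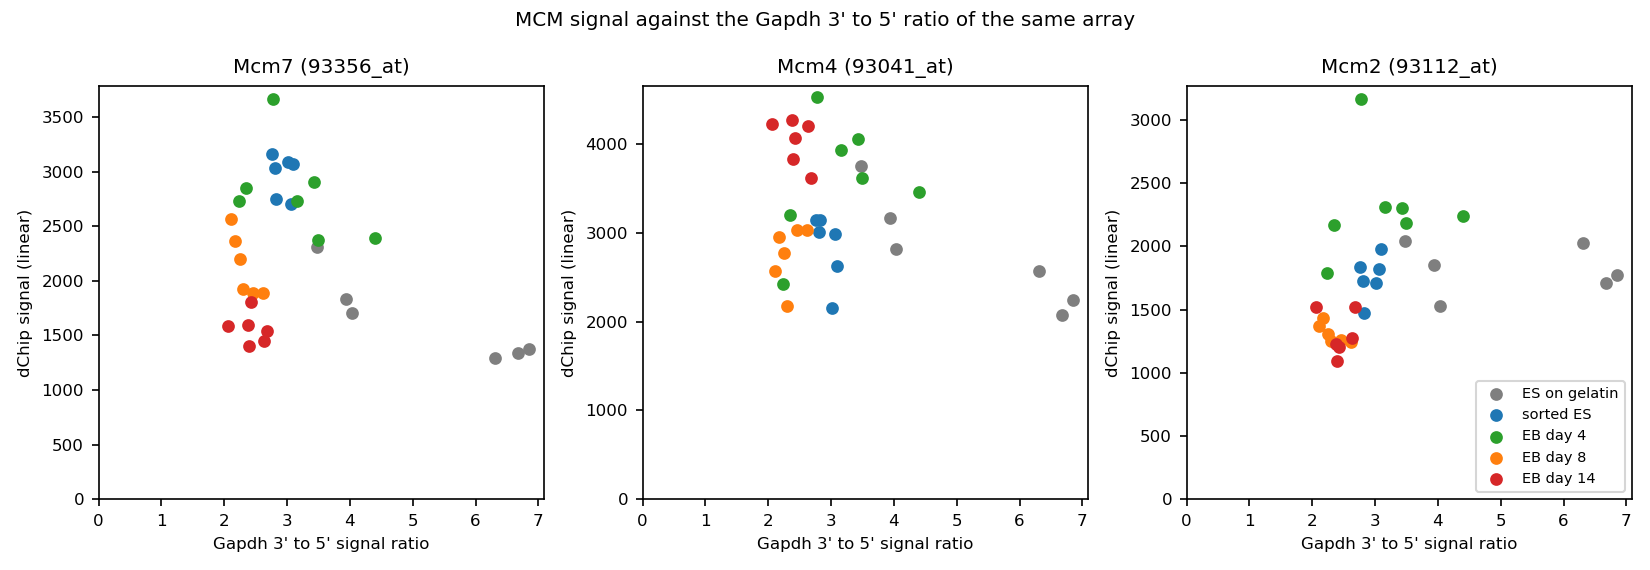
Linear dChip signal of Mcm7, Mcm4 and Mcm2 against the Gapdh 3' to 5' signal ratio of the same array, for all 31 arrays coloured by group. The 3 gelatin arrays with ratios above 6 have the lowest Mcm7 signals of the gelatin group (1291 to 1373), and for Mcm2 they lie among the others (1709 to 2025).

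Among EBs, Mcm2, Mcm3, Mcm4 and Mcm7 were lower at day 8 than at day 4. At day 8, 5 of 8 MCM probe sets were lower than at day 4 and 0 higher (12.6% of all were lower, 11.9% higher), with a median of -0.38 beside 0 over all probe sets. Mcm2 fell by 0.80 ± 0.10 (adjusted p = 7.3e-07), Mcm3 by 0.47 (160496_s_at) and 0.57 (100062_at; adjusted p = 1.71e-05 and 4.03e-06), with no overlap of arrays. Mcm4 also fell, by 0.37 (adjusted p = 0.0349), a call lost without any 1 of day 4 arrays 2, 3, 4 and 5 or day 8 arrays 1, 3 and 6 (-0.38 to -0.31). The Mcm7 call was lost without day 8 arrays 2 and 4, as given above. At day 14, 2 were lower than at day 8 (Mcm5 on 100156_at and Mcm7) and 1 higher (Mcm4; 11.9% and 20.1% of all). Over the whole span from day 4, 5 were lower at day 14 and 1 higher (19.6% and 25.3% of all), with Mcm2 down by 0.81 and Mcm7 by 0.84 (adjusted p = 1.02e-07 and 8.15e-07).

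The members shared their course to different degrees. Each gene entered by its brightest probe set, 160496_s_at for Mcm3 and 100156_at for Mcm5. The Mcm5 values here thus rest on 1 of 2 probe sets that gave different patterns. Over the 31 arrays, Mcm2 and Mcm3 correlated most closely (Pearson r of log2 signal 0.774), and Mcm4 with Mcm5 and with Mcm6 least (-0.270 and -0.268). The points share arrays, groups and the amplification, and with group means removed Mcm2 and Mcm3 correlated at 0.470, and Mcm4 with Mcm5 and Mcm6 at -0.064 and 0.093. The closest pair was then Mcm4 and Mcm7 (0.478, against 0.044 before). The mean of the standardized member values was then set against 8152 other genes, each by 1 probe set. Rpa1 (0.904), the large subunit of the single-stranded DNA binding protein RPA, Wdr74 (0.896), Ubr7 (0.890), Fkbp5 (0.884), an HSP90 co-chaperone, and Ccnf (0.870), which encodes cyclin F, were most like it. The order depended on the measure: without Mcm6 in the mean Ubr7 ranked 1, Rpa1 4 and Ccnf 10, and with group means removed Wdr74 ranked 2, Ccnf 7, Rpa1 22, Ubr7 32 and Fkbp5 51. Rpa1 averaged 3830 ± 673 at day 4, 2444 ± 306 at day 8 and 2190 ± 240 at day 14, against 3016 ± 168 on gelatin and 3705 ± 524 in sorted cells (SD). Least like it were Rnase4 (-0.882), Myorg (-0.874) and the keratin gene Krt19 (-0.873). Krt19 averaged 557 ± 493 at day 4, 2814 ± 742 at day 8 and 3722 ± 972 at day 14, against 917 ± 133 on gelatin and 680 ± 113 in sorted cells. The members correlated with their own mean at 0.895 (Mcm3), 0.884 (Mcm2), 0.768 (Mcm7), 0.538 (Mcm5), 0.530 (Mcm6) and 0.227 (Mcm4), the last at 0.632 with group means removed. Each member is part of that mean, which raises these values. With Mcm6 left out of the mean, Mcm6 correlated with it at 0.303.

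Origin recognition and licensing genes, a list that holds loaders of the MCM ring and the inhibitor geminin, were mostly lower at day 14. Of 8 measured origin recognition and licensing genes, 6 were lower than on gelatin and 0 higher (1986 of 8251 genes lower, 1878 higher), with a median log2 change of -0.39 beside 0.00 over all genes. Against sorted cells 6 were lower and 1 higher (2013 and 2223 of all genes), with a median of -0.44. With the mean of each gene's probe sets in place of the brightest, 5 were lower than on gelatin and 6 than in sorted cells. The medians were then -0.28 and -0.35. Orc6, an origin recognition subunit, averaged 1525 ± 189 at day 14, against 2786 ± 335 on gelatin and 1923 ± 364 in sorted cells, a fall of 0.87 and 0.32 (adjusted p = 2.74e-07 and 0.0182). Orc2 fell by 0.56 and 0.35, Orc5 by 0.48 and 0.70, and Gmnn (geminin) by 0.43 and 0.63, in the same order of day-0 groups. Cdt1, the loading factor, was lowest at day 8, by 0.83 below gelatin and 1.04 below sorted cells (adjusted p = 1.9e-05 and 1.16e-06), on a probe set whose _f_at suffix marks probes shared within a family. At day 14 it was higher than at day 8 (0.49, adjusted p = 0.00712) and still lower than on gelatin (-0.34, adjusted p = 0.0465) and in sorted cells (-0.55, adjusted p = 0.00145). Cdc6, its partner in loading, was at -0.15 and 0.12 at day 8 (adjusted p = 0.282 and 0.419), and at day 14 was -0.01 against gelatin (adjusted p = 0.968) and higher by 0.26 against sorted cells (adjusted p = 0.0499). Cdt1 and Cdc6 were chosen for mention after their values were seen.

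Of 6 measured helicase activation genes, 1 was higher and 0 lower at day 14 than on gelatin, and 2 were higher and 1 lower than in sorted cells, beside the counts over all genes given above. Cdc45, the activating subunit of the helicase, averaged 1214 ± 98.4 at day 14, against 776 ± 73.4 on gelatin and 1272 ± 122 in sorted cells, a change of 0.65 (adjusted p = 0.000202) and -0.07 (adjusted p = 0.729). Like Mcm7 it was lower on gelatin than in sorted cells (-0.71, adjusted p = 8.69e-05). Of 30 replication fork genes, 9 were lower and 7 higher at day 14 than on gelatin, and 13 lower and 4 higher than in sorted cells. Over all 8251 genes, 1986 were lower and 1878 higher than on gelatin, and 2013 and 2223 than in sorted cells. Prim2, the large primase subunit, and Rfc4, a clamp loader subunit, were higher than on gelatin (0.82 and 0.75) and at -0.06 and 0.09 against sorted cells (adjusted p = 0.776 and 0.755). Rpa2 and the fork protection gene Tipin fell in both comparisons, by 0.73 and 0.67 against gelatin and 0.58 and 0.99 against sorted cells.

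Nucleotide supply genes (7 measured) split into 3 lower and 4 higher than on gelatin at day 14, and 3 lower and 1 higher than in sorted cells. Beside each list of this paragraph stand the counts over all 8251 genes. These were 1986 lower and 1878 higher than on gelatin, and 2013 lower and 2223 higher than in sorted cells. Gart, of purine synthesis, and Dctpp1, a dCTP-cleaving enzyme, fell by 1.41 and 1.04 against gelatin, while Rrm2, the ribonucleotide reductase subunit that limits dNTP supply in S phase, was higher by 0.90. Ctps, which makes CTP, fell by 0.38 against gelatin and was at -0.17 against sorted cells (adjusted p = 0.134). Of 8 E2F and RB family genes, 2 were lower and 3 higher than on gelatin, and 2 lower and 2 higher than in sorted cells. E2f8, a repressor among E2F factors, fell by 1.02 against gelatin and 0.91 against sorted cells on another _f_at probe set. E2f5, a repressor that acts with RB relatives, was higher by 0.47 and 0.68. Rbl1 (p107) was higher by 0.30 than on gelatin but lower by 0.14 than in sorted cells. Tfdp1, the E2F partner, also on an _f_at probe set, was at 0.21 and -0.15 (adjusted p = 0.0391 and 0.133). Of 24 mitosis genes, 4 were lower and 6 higher than on gelatin, and 5 each way against sorted cells. Cenpe, a kinetochore motor, averaged 532 ± 191 at day 14, against 150 ± 38.7 on gelatin and 94.1 ± 21.6 in sorted cells (1.77 and 2.44, adjusted p = 3.85e-05 and 3.33e-07). Bub1, a checkpoint kinase, was higher by 1.12 than on gelatin and at 0.14 against sorted cells (adjusted p = 0.528). The checkpoint gene Mad2l1 fell by 0.71 and 0.80, and Kif11, a spindle motor, was higher by 0.54 and 0.43. The MCM relatives Mcm8 and Mcm9 had no probe set of a single symbol.

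**Figure D5:**
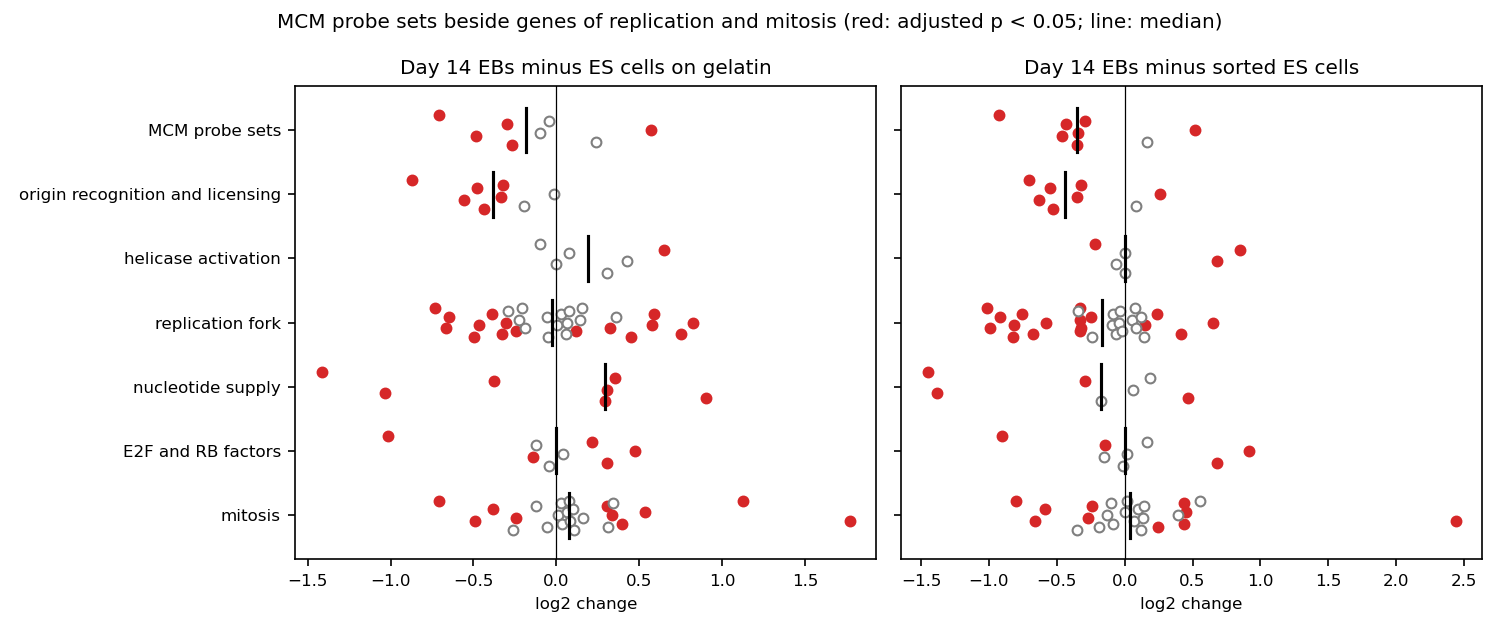
Log2 change at day 14 minus ES cells on gelatin (left) and minus sorted ES cells (right) for the 8 MCM probe sets and for each gene of 6 lists. Red points passed adjusted p under 0.05 in limma, open points did not, and the black line is the median of each row. The lists were chosen with earlier results of these data known. The origin recognition and licensing row has medians of -0.39 and -0.44, the lowest of the rows in either panel, and the MCM row has -0.18 and -0.35. Listed genes are drawn by their brightest probe set. With the mean of each gene's probe sets the licensing medians are -0.28 and -0.35.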

How the data were processed

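RNA of 31 samples (6 or 7 per group) was amplified in 2 rounds and hybridised to Affymetrix MgU74Av2 arrays. The authors normalized the arrays and modelled probe sets with dChip, and the deposited values are linear signal intensity, not log transformed. The dChip version and model are not given in the sources used here. Of 387128 values, 104 are exactly 0. Methods list 12 days where the labels give day 14, and the labels were followed.

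From these values 66 control probe sets were left out and 12422 tested. Values under the 5th percentile (59.6) were raised to it and log2 transformed. All arrays entered 1 linear model with a mean per group (limma 3.58.1 in R 4.3.3, lmFit and eBayes with a variance trend), with Benjamini-Hochberg adjustment over all tested probe sets and a threshold of 0.05. For a listed gene with several probe sets the brightest on average was used, and so it was for the members in the correlations. Elsewhere all MCM probe sets are given. The procedure was tested on simulated data. The number of arrays limits the precision, and p-values measure the spread between these arrays, which may in part be technical. Whether replicate numbers pair arrays across groups is not known, and the main fit treats them as unpaired. After group means were removed, 60 same-number pairs correlated between -0.351 and 0.494, with 23 over 0.1. Pairs with different numbers were not set beside them, so these values cannot decide it.

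The members and gene lists were chosen with earlier results of these data known. Named genes are all members, up to 4 genes per list with the largest called change at day 14 against gelatin, the 5 most and 3 least like genes, and marker genes. Listed likeness used Pearson correlation over 31 arrays. Alternatives covered scaling, floors, filters, arrays left out, array weights, a replicate block and pooled day-0 groups. Figures were drawn with matplotlib 3.10.9. Later time points were not analysed here.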

Additional observations from a re-analysis of the deposited data

Results flagged for a closer look

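In 4 of 40 group-wise checks of an MCM probe set, 1 array lay farther from the rest than Dixon's limit allows, a rate of which chance gives about 1 in 20. On day 4 array 3, Mcm2 had a signal of 3165.8 (next highest 2308.2) and Mcm7 a signal of 3667.5 (next highest 2905.5). On day 8 array 3, Mcm5 on 162102_r_at had a signal of 1331.6 (next lowest 1714.5), and on day 14 array 3 the same probe set had 1676.8 (next lowest 1872.9). Without day 4 array 3, the day 4 calls of Mcm2 and Mcm7 against gelatin held.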

How the results depend on the processing

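For the 6 comparisons of EBs with a day-0 group, a required 2-fold change left 0 called MCM probe sets in each (main counts 4, 5 and 5 against gelatin and 3, 6 and 7 against sorted cells, without that requirement). At day 4 against sorted cells, the main count of 3 became 5 with array weights (2 lower, 3 higher), 5 with both day-0 groups pooled (1 lower, 4 higher) and 5 without day 4 arrays 6 and 7 (2 lower, 3 higher), the last an alternative chosen after seeing the data. Also chosen after seeing the data, leaving out gelatin arrays 3, 4 and 6 gave 2 (0 lower, 2 higher) at day 4, 3 (3 lower, 0 higher) at day 8 against gelatin, and 1 for gelatin against sorted cells, and the Gapdh 3' to 5' ratio as a covariate gave 2 (0 lower, 2 higher) at day 4, 0 at day 8 and 2 (2 lower, 0 higher) at day 14 against gelatin. The ratio and the gelatin group are closely tied, and the cause was not tested. The share of all probe sets called with the covariate, or without these gelatin arrays, is not given. Leaving out day 8 arrays 2 and 4, or 1, 3 and 5, was likewise chosen after seeing the data. Mcm7 changed sign at day 8 against gelatin when the day-0 groups were pooled (-0.038, limma adjusted p = 0.824) and under the covariate (-0.202, adjusted p = 0.472). Neither value passed the threshold. At day 4 against sorted cells Mcm7 also changed sign when pooled (0.351, adjusted p = 0.0121). Pooling replaces the day-0 group. With 1 array left out at a time, the counts were 3 to 5, 5 and 5 against gelatin at days 4, 8 and 14, 3 to 4, 5 to 6 and 7 against sorted cells, 1 to 2 for gelatin against sorted cells, and 4 to 6 (day 8 against 4), 3 (day 14 against 8) and 6 to 7 (day 14 against 4) among EBs. A replicate block moved 2 member calls past the threshold, Mcm6 at day 8 (-0.16, adjusted p = 0.0394) and day 14 (-0.15, adjusted p = 0.0378) against day 4, and changed no other. Centring each array on its median moved the share of lower and higher probe sets at day 14 against day 4 to 36.3% and 17.1% (main 19.6% and 25.3%), at day 14 against day 8 to 25.4% and 13.9% (main 11.9% and 20.1%), and on gelatin against sorted cells to 30.6% and 18.3% (main 18.2% and 21.4%).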
